A study of Mus musculus and Homo sapiens with 41 samples.

Results

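The promoters of isolated long intergenic non-coding RNA (lincRNA) genes were examined for the histone mark H2AK119ub. The windows were all mouse genes annotated as lincRNA in GENCODE vM21 on chromosomes 1 to 19, X and Y whose transcription start site (TSS) lay over 10 kb from every protein-coding TSS. Each window reached 5 kb to either side of the TSS. Of 5854 lincRNA genes, 4946 met this rule and 908 lay nearer to a protein-coding TSS. The median isolated lincRNA started 95.3 kb from the nearest protein-coding TSS, with a longest distance of 2334 kb. Because 629 windows overlapped that of another member, merging left 4619 separate stretches, and 314 windows reached into the body of a protein-coding gene. The rule used the annotation alone and no measured value.

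The series profiled chromatin by CUT&Tag, in which an antibody directs a transposase to cut near a mark. It holds 41 libraries, of which 27 mouse H2AK119ub libraries in 9 groups of 3 and 2 mouse BAP1 libraries were used here. The mouse embryonic stem (mES) cells were Tet2 KO or WT, either untransfected or given a control siRNA (siNC). Tet2-KO mES cells also received siRNA against Mbd6 (siMbd6) or Nsun2 (siNsun2), so these groups and their siNC reference all lacked Tet2. The haematopoietic stem and progenitor cells (HSPCs) were Lin- c-Kit+ bone-marrow cells of mice aged 6 to 8 weeks, cultured for 7 days. The 3 HSPC groups were Tet2 KO with shRNA against Mbd6 (shMbd6), Tet2 KO with control shRNA (shNC) and WT with shNC. BAP1 was profiled in WT mES cells only. The mES cells were a WT and a Tet2-KO line obtained from another laboratory, and no number of clones was given. The labels name replicates 1 to 3 without saying whether they came from separate cultures or animals, so p-values measure the spread between these libraries, which may be technical. Peak lists hold no RNA, so neither the loss of Tet2 nor the knockdowns could be checked here.

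H2AK119ub is a single ubiquitin placed on a lysine near the C-terminal tail of histone H2A by Polycomb repressive complex 1, and it is found at the promoters of silenced developmental genes. BAP1 is the catalytic subunit of the PR-DUB complex, which removes it, and MBD6 is a partner of that complex. TET2 oxidizes 5-methylcytosine, and NSUN2 is an RNA methyltransferase that makes 5-methylcytosine in RNA. LincRNA promoters mostly have fewer CpG dinucleotides than protein-coding promoters, and Polycomb complexes are known to favour dense, unmethylated CpG sequence. LincRNAs such as Xist are themselves known for recruiting Polycomb complexes to chromatin in cis.

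The value given throughout is the covered length, meaning the kb of a 10-kb window that lie inside deposited broad peaks. A window without a peak had no stretch past the peak caller's threshold in that library, which is not a measurement of 0 for the mark. Sequencing depth is not given in the files and is unknown. The number of listed peaks therefore stands as the only guide to the yield of a library. It was 24435 to 37496 in untransfected KO, untransfected WT and WT siNC mES cells, and 4314 to 12225 in the 9 KO libraries with an siRNA. It was 7758 to 8401 in KO shMbd6, 1619 to 1693 in KO shNC and 4041 to 4702 in WT shNC HSPCs. Replicate 1 listed the fewest peaks in each mES cell group with H2AK119ub. Peaks over marker genes are not expression and cannot name a cell type. Summed over 6 pluripotency promoters, covered length averaged 1.59 to 1.88 kb in untransfected KO, untransfected WT and WT siNC mES cells. It averaged 0.0833 to 0.265 kb in the KO mES cell groups with an siRNA, and 0.566, 0 and 0.334 kb in KO shMbd6, KO shNC and WT shNC HSPCs. Over 7 haematopoietic promoters it ran the same way, at 1.83 to 1.88 kb, 0.239 to 0.653 kb, and 0.384, 0 and 0.101 kb.

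The sequences below show what lay under the peaks that the results turn on. Each is 200 bases of the gene's own strand from the GRCm38.p6 (mm10) assembly of RefSeq, in the middle of the stretch covered in the most libraries of the group named, with CpG dinucleotides in capitals. That of Gm33838 was covered in all 27 H2AK119ub libraries and is wholly inside annotated repeats and low-complexity sequence (soft-masked).
Gm33838, chr9:35305314-35305513, - strand: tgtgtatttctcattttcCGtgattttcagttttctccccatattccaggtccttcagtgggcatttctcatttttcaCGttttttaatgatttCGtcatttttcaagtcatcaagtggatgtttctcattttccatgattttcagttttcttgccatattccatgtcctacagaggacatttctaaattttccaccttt
Gm8579, covered in all 6 WT mES cell libraries and still covered in every KO siRNA library, lies on a tandem array that repeats itself with a shift of 72 bases at 96.1% identity.
Gm8579, chr6:3290990-3291189, + strand: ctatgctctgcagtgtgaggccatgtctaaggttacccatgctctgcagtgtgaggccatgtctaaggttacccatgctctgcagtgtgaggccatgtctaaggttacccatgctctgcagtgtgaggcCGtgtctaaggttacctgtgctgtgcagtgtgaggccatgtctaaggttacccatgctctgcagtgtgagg
Gm48623 and Lncenc1 were covered in all 6 WT mES cell libraries and in no KO siNC library, with stretches centred at 1676 and −2179 bases from the TSS (negative is upstream). Mir9-3hg was covered in every WT library of both cell types, and its stretch, centred at −3829 bases from the TSS, holds 17 CpG at an observed-to-expected ratio of 0.89.
Gm48623, chr13:54303535-54303734, + strand: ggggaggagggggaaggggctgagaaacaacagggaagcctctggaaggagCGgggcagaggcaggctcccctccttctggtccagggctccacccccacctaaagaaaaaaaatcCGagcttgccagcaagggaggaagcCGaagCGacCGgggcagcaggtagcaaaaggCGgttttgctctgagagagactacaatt
Lncenc1, chr13:97432691-97432890, + strand: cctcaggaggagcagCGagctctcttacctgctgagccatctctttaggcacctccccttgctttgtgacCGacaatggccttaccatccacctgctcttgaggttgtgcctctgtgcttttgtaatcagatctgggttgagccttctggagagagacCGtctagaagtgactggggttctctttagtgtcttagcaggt
Mir9-3hg, chr7:79496097-79496296, + strand: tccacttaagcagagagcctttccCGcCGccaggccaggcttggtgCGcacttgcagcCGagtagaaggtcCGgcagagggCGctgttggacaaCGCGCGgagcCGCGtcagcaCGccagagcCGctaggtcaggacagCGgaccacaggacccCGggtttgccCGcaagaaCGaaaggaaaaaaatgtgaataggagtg
Gm49166 was covered in all 3 untransfected KO libraries and in no WT mES cell library, and Gm5122 in all 3 KO shMbd6 HSPC libraries and in no KO shNC library.
Gm49166, chr15:19679162-19679361, + strand: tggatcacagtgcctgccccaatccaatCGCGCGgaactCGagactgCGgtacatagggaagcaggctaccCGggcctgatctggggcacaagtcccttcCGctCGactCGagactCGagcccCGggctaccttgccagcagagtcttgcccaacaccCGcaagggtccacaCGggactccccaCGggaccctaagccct
Gm5122, chr9:61013126-61013325, + strand: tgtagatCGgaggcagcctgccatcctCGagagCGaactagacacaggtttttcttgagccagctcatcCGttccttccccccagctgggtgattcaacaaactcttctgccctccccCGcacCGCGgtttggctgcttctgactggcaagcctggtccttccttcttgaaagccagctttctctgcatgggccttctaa
Malat1 had no peak in any library although the 200 bases around its TSS hold 11 CpG.
Malat1, chr19:5802572-5802771, - strand: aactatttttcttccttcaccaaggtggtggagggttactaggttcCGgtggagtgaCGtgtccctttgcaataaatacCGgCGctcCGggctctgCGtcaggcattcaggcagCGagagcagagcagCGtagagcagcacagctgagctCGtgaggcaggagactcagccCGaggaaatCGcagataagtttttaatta

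Most isolated lincRNA promoters carried no H2AK119ub peak, and those that did were found mainly in mES cells. No peak touched 3324 of the 4946 windows (67.2%) in any of the 27 libraries. Another 538 windows had a peak in 1 or 2 libraries and 1084 in at least 3. All 6 WT mES cell libraries covered 416 windows (8.41%), compared with 38.3% of 21938 protein-coding windows. The 3 WT HSPC libraries shared 35 windows. Of these, 28 were also covered in all 6 WT mES cell libraries, which is 80.0% of the HSPC windows and 6.73% of the mES cell windows.

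A peak was found in 16.2% ± 2.9 of isolated lincRNA windows in untransfected KO mES cells and in 16.6% ± 3.3 in untransfected WT mES cells (SD, n = 3 each). The share was 3.98% ± 1.49 with siMbd6, 3.01% ± 1.06 with siNsun2 and 3.16% ± 1.02 with siNC in KO cells, against 16.9% ± 3.4 in WT siNC cells (SD, n = 3 each). In HSPCs it was 3.42% ± 0.35 in KO shMbd6, 0.539% ± 0.023 in KO shNC and 1.57% ± 0.17 in WT shNC (SD, n = 3 each). Protein-coding windows stood at 55.3% and 54.9% in untransfected KO and WT cells and at 13.2% in WT shNC HSPCs. The share was lower in isolated lincRNA windows than in protein-coding windows in 9 of 9 groups. The mean difference was −20.3 percentage points (SD 14.3, range −39.1 to −2.07), with p = 0.00391 in an exact two-sided sign-flip permutation test over groups, the smallest this test can give. Libraries of a group and groups with shared controls are not fully independent in this test. The 908 lincRNA genes within 10 kb of a protein-coding TSS stood at 57.0% and 58.1% in untransfected KO and WT mES cells. The 2 BAP1 libraries showed no such gap, with a peak in 0.687% of isolated lincRNA windows and 0.647% of protein-coding windows.

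**Figure D1:**
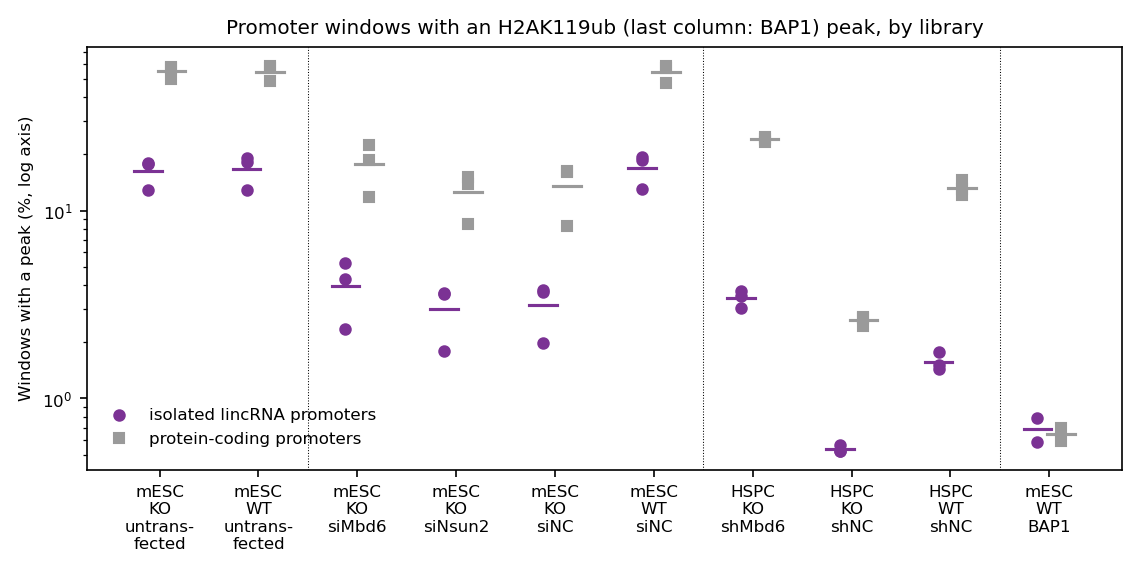
Share of 10-kb promoter windows with at least 1 peak (y axis, %, log scale) in each library of each group (x axis), for isolated lincRNA genes (circles) and protein-coding genes (squares), with bars at the group means. In each H2AK119ub group the lincRNA mean lies below the protein-coding mean (16.6% against 54.9% in untransfected WT mES cells), whereas the BAP1 means are 0.687% and 0.647%.

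The isolated lincRNA windows made up 1.74% of the genome examined and held 2.18 to 2.52% of all covered bases in the 9 untransfected KO, untransfected WT and WT siNC mES cell libraries. They held 1.57 to 2.04% in the other 18 H2AK119ub libraries. Within the windows, coverage gathered at the TSS. In untransfected WT mES cells the 0.5-kb bin centred 0.25 kb upstream of the TSS was covered in 2.60% of its bases, against 0.418% in the outermost bins. The corresponding values were 2.86% and 0.443% in WT siNC cells. Of the covered bases, 45.9% lay within 1 kb of the TSS in untransfected WT mES cells, compared with 75.5% for protein-coding windows. In WT shNC HSPCs this share was 34.8% for isolated lincRNA windows and 82.6% for protein-coding windows. BAP1 had 22.0% of its covered bases within 1 kb of the lincRNA TSS. These lincRNA shares include 3 overlapping ribosomal RNA-like windows, described below. Summed lincRNA coverage with and without them was 45.3 and 32.7 kb in WT shNC replicate 1, and 14.2 and 11.1 kb in BAP1 replicate 1. Their part in these shares was not tested.

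**Figure D2:**
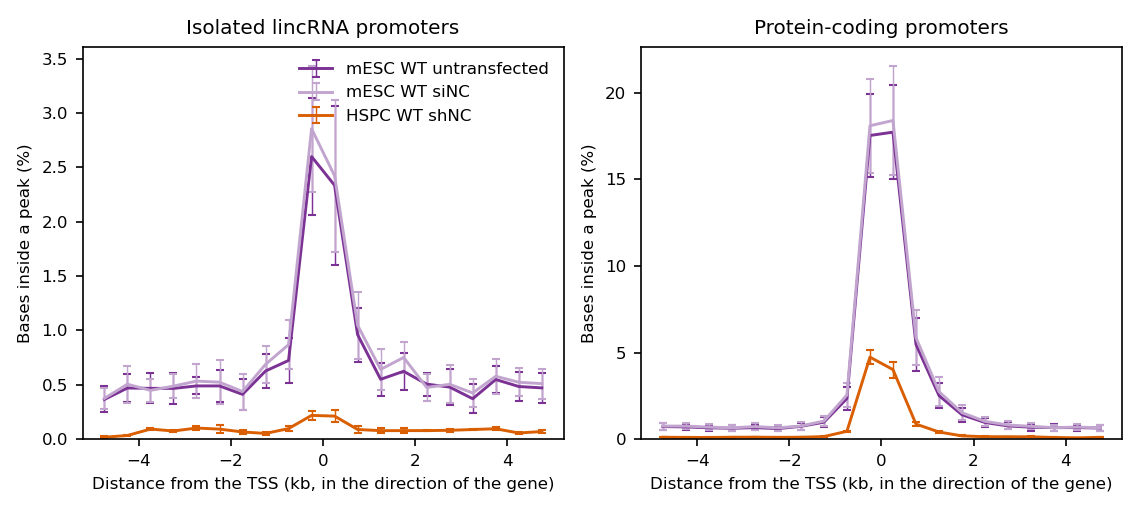
Percentage of bases inside an H2AK119ub peak (y axis) by distance from the TSS in 0.5-kb bins (x axis, kb, positive in the direction of the gene), as mean and SD of 3 libraries, for isolated lincRNA windows (left) and protein-coding windows (right, another y scale). Both kinds peak at the TSS, at 2.60% and 17.7% in untransfected WT mES cells.

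The marked lincRNA promoters differed in sequence and place from the unmarked ones. The 416 windows covered in all 6 WT mES cell libraries had a median CpG observed-to-expected ratio of 0.289 in the 1 kb around the TSS and a median distance of 57.2 kb to the nearest protein-coding TSS. The 3592 windows covered in none of them had medians of 0.188 and 122 kb. A ratio of at least 0.6, taken here as CpG-rich, was found in 13.5% of the first set and 0.863% of the second. Protein-coding windows covered in all 6 libraries were CpG-rich in 67.1%. Within the lincRNA windows, the sequence covered in all 6 libraries held 34.7 CpG per kb and the rest of the same windows 12.4 CpG per kb. These are descriptions over windows, which share libraries and are not replicates.

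Across 4 bins of CpG ratio, the share of isolated lincRNA windows with a peak in WT mES cells was 9.90% below 0.2, 18.98% from 0.2 to 0.4, 31.4% from 0.4 to 0.6 and 60.8% at 0.6 and over. The protein-coding windows of the same bins stood at 14.5%, 34.4%, 72.6% and 76.8%. The lincRNA mean was thus below the coding mean in each of the 4 bins, and the most CpG-rich bin held only 134 of the 4946. Ranges over libraries overlapped in the lowest bin (7.15 to 11.4% against 11.2 to 16.3%) and in the highest (52.2 to 68.7% against 68.1 to 81.6%). The highest bin has no upper limit, so CpG content within it can differ. With distance, the share in WT mES cells was 25.3% at 10 to 20 kb from the nearest coding TSS, 24.8% at 20 to 50 kb, 20.1% at 50 to 100 kb, 14.02% at 100 to 200 kb, 8.27% at 200 to 500 kb and 4.98% beyond 500 kb. The first 2 of these bins overlapped in their range over libraries. By chromosome, 31 of 184 windows on chromosome 17 (16.8%) were covered in all 6 WT mES cell libraries, but only 1 of 83 on the X chromosome and 0 of 540 on the Y chromosome.

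**Figure D3:**
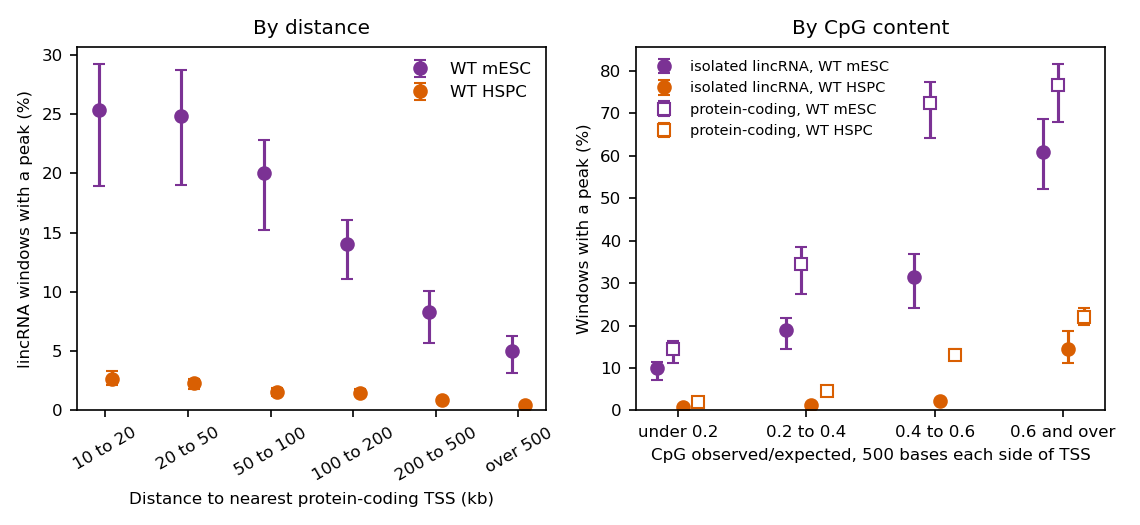
Share of windows with an H2AK119ub peak (y axes, %) by distance to the nearest protein-coding TSS (left, kb) and by CpG observed-to-expected ratio (right), for WT mES cells (purple) and WT HSPCs (orange), with isolated lincRNA windows as circles and protein-coding windows as open squares. Points are means over libraries (6 in mES cells, 3 in HSPCs) and bars run from the lowest to the highest library, and in mES cells lincRNA windows fall with distance (25.3% to 4.98%) and climb with CpG content (9.90% to 60.8%).

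The widest coverage lay on 3 overlapping windows of chromosome 17 (Gm26917, Gm42418 and AY036118), which overlap a ribosomal RNA-related sequence, Rn18s-rs5 in RefSeq. Ribosomal RNA genes occur in many copies, and peaks there cannot be assigned to a copy. Gm42418 was covered over 4.22 to 4.95 kb in the mES cell H2AK119ub libraries and over 1.04 and 1.88 kb in the BAP1 libraries. These 3 windows are set apart in the sums below, where bases they share are counted once for each window. In all, 9 windows were covered in all 27 libraries, namely these 3 and those of 5031425F14Rik, Gm26853, Gm32624, Gm33838, Gm35248 and Gm47882. Coverage of 5031425F14Rik stayed between 0.515 and 0.963 kb over all libraries.

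Next in WT mES cells came Mir124-2hg, which hosts the neuronal microRNA miR-124. It had 1.52, 2.84 and 1.53 kb covered in untransfected KO cells, against 2.09, 1.09 and 1.15 kb in untransfected WT cells. The stretch shared by the most WT libraries was centred 4917 bases downstream of its TSS, near the end of the window. Gm11528, near the nerve growth factor receptor gene Ngfr, had 1.13, 1.13 and 1.19 kb in untransfected KO cells and 1.19, 1.17 and 1.08 kb in untransfected WT cells. Gm26713, a window of 85.0% repeat sequence, spanned 0.611 to 2.04 kb in untransfected KO and 0.739 to 1.84 kb in untransfected WT cells. Gm30725 near Prox1, Gm6999 near Pcdh8 and AC141471.3 near Cxxc5 completed the highest 10 together with Gm8579. For all of these, untransfected KO and WT libraries overlapped.

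Untransfected Tet2-KO and WT mES cells overlapped in the covered length of isolated lincRNA promoters. Summed over the windows, it was 278, 417 and 406 kb in KO libraries, against 247, 399 and 425 kb in WT libraries. The groups overlapped, with a log2 ratio of 0.04 and p = 0.8 in an exact two-sided permutation test (n = 3 each, smallest possible p 0.1). The sign of this ratio turned without KO replicate 2 (−0.06), KO replicate 3 (−0.04) or WT replicate 1 (−0.17). Protein-coding windows were 1.09-fold higher in KO cells. Per window, limma found 0 of 837 tested isolated lincRNA windows higher and 0 lower at an adjusted p under 0.05. Over all 13673 tested windows, 0.0219% were called higher and 0.0% lower. Without adjustment, 79 of the 837 had p under 0.05, compared with 791 of all 13673 tested windows. Other settings made calls in both directions. On a log2 scale, 20 were called higher and 17 lower (4.42% of those tested, compared with 1.39% of all windows). With only sequence covered in at least 2 libraries of a group, which narrows the spread within groups by its construction, 57 were called higher and 67 lower (17.8%, compared with 11.9% of all windows). The windows tested were those covered in at least 3 libraries of the experiment, and 4109 isolated lincRNA windows were not.

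A peak in all 3 KO and no WT library was found at 21 windows (0.425%), and one in all 3 WT and no KO library at 19 windows (0.384%). Protein-coding windows gave 86 (0.392%) and 74 (0.337%), so these shares were near those of coding windows. Such windows passed the filter only through the group in which they are high. The values of single windows that follow are a description. Gm49166, a repeat-rich window 771 kb from the nearest coding gene Cdh12, had 1.28, 0.973 and 0.994 kb in KO cells and 0 kb in all 3 WT libraries. Its difference of 1.08 kb (SE 0.098) had an adjusted p of 0.0563. H19, an imprinted lincRNA that restrains growth, had 0.385, 0.297 and 0.578 kb in KO cells and 0 kb in all 3 WT libraries, with an adjusted p of 0.31. Gm47712 and AC102342.2 also had a peak in the 3 KO libraries alone (0.401 to 0.522 kb and 0.443 to 0.545 kb). In the other direction, 9230019H11Rik had 0 kb in KO cells and 0.599, 0.471 and 0.69 kb in WT cells. 1700054K19Rik had 0 kb in KO cells and 0.435, 0.414 and 0.447 kb in WT cells, with an adjusted p of 0.132. Gm26538, inside the body of the histone demethylase gene Kdm3b, had 0 kb in KO cells and 0.34, 0.482 and 0.448 kb in WT cells.

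The siNC libraries of the same genotypes, which did not enter this choice, gave another reading of these windows. Of the 21 windows covered in KO only, 0 were covered in all 3 WT siNC libraries and 14 had no peak in any of them, compared with 4 and 30 of the 86 protein-coding windows. Of the 19 covered in WT only, 7 were covered in all 3 WT siNC libraries, compared with 26 of the 74 protein-coding windows. Absence in KO siNC libraries was common among all windows and is not counted here. Gm49166 had 0, 0.591 and 0.273 kb in KO siNC cells and 0 kb in all 3 WT siNC libraries. 9230019H11Rik had 0 kb in all 3 KO siNC libraries and 0.418, 0.536 and 0.582 kb in WT siNC cells. In HSPCs, where it was among the highest windows, 9230019H11Rik had 0.775, 0.797 and 0.8 kb in KO shNC and 0.853, 0.88 and 0.846 kb in WT shNC libraries. This window thus lacked peaks in KO libraries of mES cells but not of HSPCs.

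In siNC-transfected mES cells, isolated lincRNA promoters lost most of their coverage in Tet2-KO cells. The summed covered length was 44.8, 89.0 and 81.9 kb in KO siNC libraries, against 268, 449 and 440 kb in WT siNC libraries. The groups did not overlap, and KO siNC was 5.37-fold lower (log2 −2.42), or 6.28-fold lower without the 3 ribosomal RNA-like windows. The exact permutation test gave p = 0.1, the smallest it allows with n = 3 each. Protein-coding windows were 4.86-fold lower. With libraries scaled to equal total covered length, the log2 ratio of isolated lincRNA windows was −0.32. KO siNC libraries also listed fewer peaks in all (4314 to 9461 against 24435 to 37496 in WT siNC), and their part in the result was not tested. The Tet2 effect in siNC cells differed from that in untransfected cells by −2.46 on the log2 scale (exact permutation p = 0.04, adjusted p = 0.08 over 4 such pairs). This permutation shuffles KO and WT labels within each contrast, so a change in either contrast alone can give a small p. It cannot tell whether the effects are equal.

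Limma called 462 of 660 tested isolated lincRNA windows lower in KO siNC cells (70.0%) and 7 higher. Over all 11432 tested windows, 71.8% were called lower and 0.262% higher, so the lincRNA share was near the background. Of the 660, 261 passed the filter through the WT siNC libraries alone and could only differ downwards. The median difference was −0.366 kb over isolated lincRNA windows and −0.415 kb over all tested windows. In 436 of the 462 (94.4%), the groups did not overlap, compared with 95.5% of all windows called lower, and in 380 all 3 KO siNC libraries were at 0. Where a whole group is at 0 it contributes no spread, and the p can then be too small. Leaving out WT siNC replicate 1, 2 or 3 left 390, 367 or 360 isolated lincRNA windows tested. Of these, 206, 150 or 146 were called (52.8%, 40.9% or 40.6%), compared with 61.6%, 45.1% or 45.8% of all tested windows. With every library scaled to the same total covered length, the median over all tested windows moved to −0.145 kb, and 273 isolated lincRNA windows were called lower (41.4%) and 20 higher (3.03%), compared with 36.1% and 2.69% of all tested windows.

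Among windows called lower whose groups did not overlap, the 6 largest falls were at Gm6999, AC091309.1, Gm48623, Gm35933, Gm29683 and Gm33340. Gm6999 lies 65.4 kb from Pcdh8, a protocadherin gene of the paraxial mesoderm. It had 0 kb in all 3 KO siNC libraries and 0.759, 1.49 and 1.33 kb in WT siNC libraries, a difference of −1.19 kb (SE 0.18, adjusted p = 0.000216). Gm48623, 69.4 kb from the synaptic gene Cplx2, had 0 kb in all 3 KO siNC libraries and 0.971, 0.942 and 1.16 kb in WT siNC libraries (adjusted p = 2.75e-07). Gm35933 had 0 kb in KO siNC and 1.14, 0.902 and 0.927 kb in WT siNC libraries. Gm29683, 28.9 kb from the nuclear receptor gene Nr2f2, had 0 kb in KO siNC and 0.588, 1.05 and 1.22 kb in WT siNC libraries. AC091309.1 kept 0.247 kb in KO siNC replicate 3, against 0.793 to 1.37 kb in WT siNC libraries. In untransfected cells each of these 6 was covered in all 3 KO and all 3 WT libraries. Gm48623 and Gm35933 had 0 kb in every KO library with an siRNA. They passed the filter only through the WT siNC libraries and could only be called lower, so their adjusted p can be too small.

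The 7 windows called higher included 8430426J06Rik, which had 0.249, 0.383 and 0.321 kb in KO siNC and 0 kb in WT siNC libraries (adjusted p = 0.0123). AC102342.2 had 0.283, 0.238 and 0.322 kb in KO siNC and 0 kb in WT siNC libraries. Gm42916, Gm43821 and Gm32624 differed by 0.298, 0.272 and 0.129 kb, and the remaining calls were 4930432H08Rik and 1700128A07Rik. Of the first 5 named, no call held in every fit that left out a single library. That of 8430426J06Rik was lost without WT siNC replicate 2 or 3 (adjusted p 0.0615 and 0.0624), and that of Gm42916 without WT siNC replicate 1 or 3 (0.0711 and 0.0931). For AC102342.2 and Gm32624, it was lost without any WT siNC replicate or without KO siNC replicate 1 or 3 (0.0550 to 0.0931 and 0.0646 to 0.326). That of Gm43821 was lost without any WT siNC replicate or without KO siNC replicate 2 or 3 (0.0641 to 0.102).

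Not all windows followed the KO siNC fall. Gm8579, on its tandem array, had 0.976, 1.23 and 1.21 kb in KO siNC and 0.885, 1.14 and 1.65 kb in WT siNC libraries (adjusted p = 0.621). Gm33838 had 0.389, 0.413 and 0.433 kb in KO siNC and 0.401, 0.437 and 0.473 kb in WT siNC libraries. Repeat sequence made up 23.9 to 25.7% of the covered bases of isolated lincRNA windows in KO siNC libraries, compared with 14.2 to 15.0% in WT siNC libraries.

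**Figure D4:**
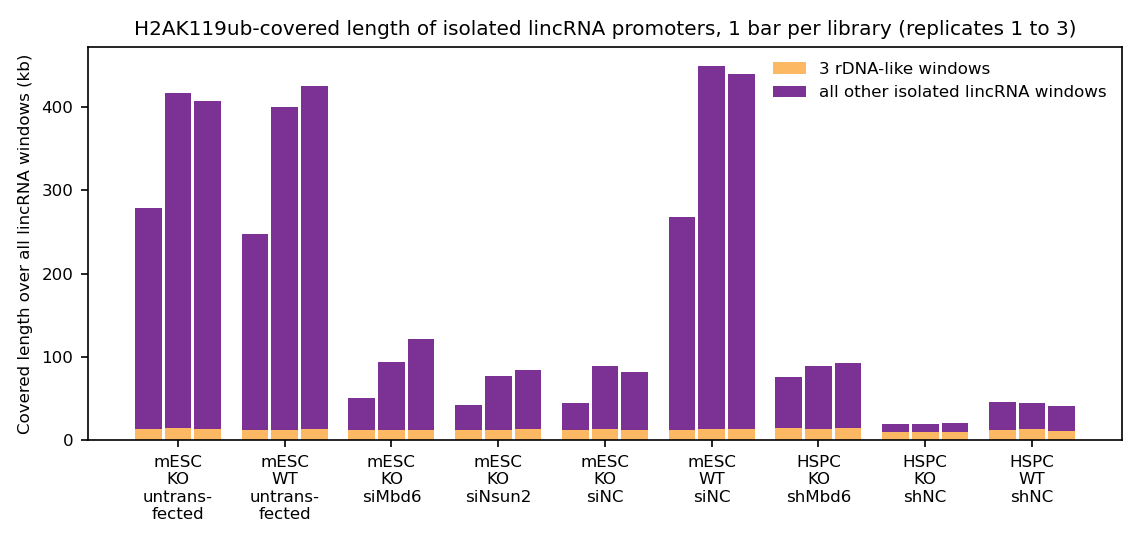
Covered length summed over the 4946 isolated lincRNA windows (y axis, kb) for each H2AK119ub library (x axis, 3 bars per group in the order of replicates 1 to 3), with the 3 ribosomal RNA-like windows of chromosome 17 in orange and all others in purple. KO siNC libraries reach 44.8 to 89.0 kb against 268 to 449 kb in WT siNC, and KO shNC HSPC libraries, at 19.04 to 20.1 kb, consist of the 3 orange windows to about the same extent as of the rest. The orange windows overlap and bases they share are counted once for each, so orange overstates the distinct sequence covered.

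Knockdown of Mbd6 or Nsun2 in KO mES cells left the libraries overlapping in covered length at isolated lincRNA promoters. Both are set against the same 3 KO siNC libraries. The summed covered length was 50.7, 93.5 and 122 kb with siMbd6, against 44.8, 89.0 and 81.9 kb with siNC (log2 0.30, exact permutation p = 0.4, n = 3 each). With siNsun2 it was 41.7, 77.4 and 84.0 kb (log2 −0.09, exact permutation p = 0.6, n = 3 each). The sign of the siNsun2 ratio turned without siNsun2 replicate 1 (0.17) or without KO siNC replicate 2 (0.10) or 3 (0.02). Limma called 0 of 660 tested isolated lincRNA windows in either comparison. For siMbd6 and siNsun2, 30 and 17 of the 660 had an unadjusted p under 0.05, compared with 492 and 284 of all 11432 tested windows. Over all tested windows, siMbd6 had 0.149% called higher and 0.0175% lower, and siNsun2 had 0.0% higher and 0.0175% lower. Leaving out a library gave 5 called windows for siMbd6 without its replicate 1 (0.767% of those tested, compared with 1.10% of all windows). It gave 2 without KO siNC replicate 3 (0.307%, compared with 0.229%). It gave 1 without siMbd6 replicate 2 or 3 or siNsun2 replicate 1 or 3 (0.152 to 0.156%, compared with 0.167 to 0.335%). For siNsun2 it gave 1 without siMbd6 replicate 3 (0.156%, compared with 0.0266%).

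Gm48189 came nearest to a call in both. It lies 60.4 kb from Myb, a transcription factor gene of blood progenitors. Its covered length was 0.342, 0.278 and 0.578 kb with siMbd6 and 0.537, 0.461 and 0.669 kb with siNsun2, against 0 kb in all 3 KO siNC libraries. The adjusted p was 0.209 for siMbd6 and 0.153 for siNsun2, and the shared 0 reference enters both. Gm26803, a window 226 kb from the myocyte and neuronal factor gene Mef2c, had 0.247, 0.279 and 0.328 kb with siMbd6 and 0 kb in KO siNC libraries (adjusted p = 0.257). 0610033M10Rik ran the other way, with 0 kb in all 3 siMbd6 libraries and 0.242, 0.49 and 0.247 kb in KO siNC libraries (adjusted p = 0.621).

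In HSPCs few isolated lincRNA promoters were marked, and fewer still without Tet2. The summed covered length was 19.6, 19.04 and 20.1 kb in KO shNC, against 45.3, 44.6 and 41.1 kb in WT shNC libraries. The groups did not overlap, and KO shNC was 2.23-fold lower (log2 −1.16, exact permutation p = 0.1, the smallest possible with n = 3 each). Without the 3 ribosomal RNA-like windows it was 3.24-fold lower, with 10.1, 9.27 and 9.80 kb in KO shNC, against 32.7, 31.5 and 30.1 kb in WT shNC libraries. Protein-coding windows were 5.29-fold lower. Relative to coding windows, lincRNA coverage was therefore 1.25 higher on the log2 scale in KO shNC, or 0.71 higher without the ribosomal RNA-like windows. Its exact permutation p was 0.1 and its adjusted p 0.3 over 6 comparisons, which could not reach 0.05 in this design. The KO shNC libraries listed 205 to 231 peaks on the chromosomes of the spiked-in Drosophila chromatin, against 48 to 56 in WT shNC libraries. Their part in the result was not tested. With libraries scaled to equal total covered length, the log2 ratio became 0.44, or −0.10 without the ribosomal RNA-like windows. In KO shNC libraries the scaled values of those windows exceeded the 10 kb that a window holds, so the 0.44 includes impossible lengths.

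Limma called 13 of 117 tested isolated lincRNA windows lower in KO shNC and 2 higher, where 22.4% of all 4367 tested windows were called lower and 0.0687% higher. The lincRNA share of lower calls was 11.1%. The median difference was −0.13 kb over isolated lincRNA windows and −0.21 kb over all tested windows. Leaving out WT shNC replicate 3 raised the number called to 23 of 112 tested (20.5%, compared with 28.6% of all tested windows). Scaling gave 10 lower (8.55%) and 17 higher (14.5%), compared with 17.7% and 4.83% of all tested windows. Apart from Gm42418, the lower windows with the largest differences were AC168212.1, Gm48879, Gm41414, Gm2885 and CR974462.6. Each of these had 0 kb in all 3 KO shNC libraries. Gm48879, 27.47 kb from the cytokine receptor gene Il6st, had 0.53, 0.499 and 0.462 kb in WT shNC libraries (adjusted p = 0.00173). CR974462.6, 18.9 kb from the histocompatibility gene H2-K1, had 0.41, 0.419 and 0.416 kb in WT shNC libraries (adjusted p = 0.00114). Gm2885 had 0.367, 0.307 and 0.573 kb in WT shNC libraries (adjusted p = 0.00492).

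AC168212.1 had 0.58, 0.871 and 1.19 kb in WT shNC libraries and Gm41414 had 0.505, 0.544 and 0.411 kb. Their adjusted p of 0.0195 and 0.0187 passed 0.05 narrowly. Without any 1 of the KO shNC libraries or WT shNC replicate 2, both calls were lost, with adjusted p of 0.0510 to 0.0553. The call of AC168212.1 was also lost without WT shNC replicate 3 (0.0541). The 2 higher windows were Gm1698, with 0.45, 0.464 and 0.296 kb in KO shNC and 0 kb in WT shNC libraries, and Gm36235. Among HSPC libraries Gm1698 had a peak in KO shNC alone, so it passed the filter only through the group in which it is high. Gm36235 had 0.607, 0.576 and 0.571 kb in KO shNC and 0.349, 0.324 and 0.295 kb in WT shNC libraries (adjusted p = 0.00435). Gm42418 itself had 3.17, 3.26 and 3.45 kb in KO shNC and 4.39, 4.56 and 3.77 kb in WT shNC libraries (adjusted p = 0.0106), a difference of −0.95 kb. It became 6.09 kb with scaling, where the KO shNC values exceeded the 10-kb window, so the scaled difference does not measure a length.

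Of the 6 comparisons, Mbd6 knockdown in KO HSPCs showed the broadest gain at isolated lincRNA promoters. The summed covered length was 75.5, 89.5 and 92.8 kb in KO shMbd6, against 19.6, 19.04 and 20.1 kb in KO shNC libraries. This was 4.39-fold higher (log2 2.13), or 7.43-fold higher without the ribosomal RNA-like windows, with an exact permutation p of 0.1, the smallest possible with n = 3 each. Protein-coding windows were 10.0-fold higher. The comparison rests on the same KO shNC libraries as the one before, so a low KO shNC value raises one ratio and lowers the other. KO shMbd6 libraries listed 85 to 95 Drosophila peaks and 7758 to 8401 peaks in all, against 205 to 231 and 1619 to 1693 in KO shNC. Their part in the result was not tested. Scaled to equal total covered length, the log2 ratio was −0.36, or 0.40 without the ribosomal RNA-like windows. The −0.36 includes scaled KO shNC values of those windows that exceeded the window length. The Mbd6 effect in HSPCs exceeded that in mES cells by 1.83 on the log2 scale (exact permutation p = 0.085, adjusted p = 0.113 over 4 pairs). Here too labels were shuffled within each contrast, so this p cannot tell whether the effects are equal.

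Limma called 63 of 117 tested isolated lincRNA windows higher in KO shMbd6 (53.8%) and 4 lower, where 71.5% of all 4367 tested windows were called higher and 0.183% lower. Of the 117, 15 passed the filter only through KO shMbd6 libraries and could only be called higher. The median difference was 0.33 kb over isolated lincRNA windows and 0.40 kb over all tested windows. With scaling, the median over all tested windows was 0.21 kb, and 26 isolated lincRNA windows were called higher (22.2%) and 17 lower (14.5%), compared with 27.8% and 5.06% of all tested windows. In 53 of the 63 all 3 KO shNC libraries were at 0. All 6 WT mES cell libraries covered 41 of the 63 (65.1%) and 28 of the other 54 tested (51.9%). At least 1 WT HSPC library covered 48 of the 63 (76.2%) and 52 of the other 54 (96.3%), and the filter on HSPC libraries itself favours such windows.

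Gm5122 was among the largest gains, with 0.993, 0.975 and 0.843 kb in KO shMbd6 and 0 kb in all 3 KO shNC libraries, a difference of 0.94 kb (SE 0.098, adjusted p = 0.000277). It had a peak in only 1 WT HSPC library (0.35 kb) and 1 of the 18 mES cell libraries (0.204 kb). 6030440G07Rik had 0.825, 1.02 and 0.981 kb in KO shMbd6 and 0 kb in KO shNC libraries (adjusted p = 0.000558), although not within 2 kb of the TSS, where its difference of 0.11 kb had an adjusted p of 0.0772. Gm46355 had 0.647, 0.879 and 0.828 kb in KO shMbd6 and 0 kb in KO shNC libraries, AC168212.1 had 1.28, 0.964 and 0.414 kb and 0 kb, and Gm41414 had 0.454, 0.993 and 0.719 kb and 0 kb. Gm42418 had 4.96, 4.51 and 4.90 kb in KO shMbd6 and 3.17, 3.26 and 3.45 kb in KO shNC libraries. With scaling the difference became −7.84 kb, but the scaled KO shNC values exceeded the window length, so it does not measure a length.

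The 4 lower windows were Gm1698, Gm5118, Gm36235 and Gm45408. Gm1698 had 0 kb in KO shMbd6 and 0.45, 0.464 and 0.296 kb in KO shNC libraries (adjusted p = 0.000713). Gm5118 had 0 kb in KO shMbd6, 0.341, 0.3 and 0.379 kb in KO shNC and 0.29, 0.323 and 0.313 kb in WT shNC libraries. Gm36235 had 0.447, 0.451 and 0.402 kb in KO shMbd6 and 0.607, 0.576 and 0.571 kb in KO shNC libraries (adjusted p = 0.0204). Gm45408 had a peak in KO shNC libraries alone (0.241, 0.21 and 0.082 kb, adjusted p = 0.0201). Like Gm1698, it passed the filter only through these libraries and could only be called lower. The call of Gm45408 was lost without any 1 of the KO shMbd6 libraries (adjusted p 0.0648 to 0.0657). That of Gm36235 was lost without any 1 of these or without KO shNC replicate 1 or 2 (0.0524 to 0.104).

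**Figure D5:**
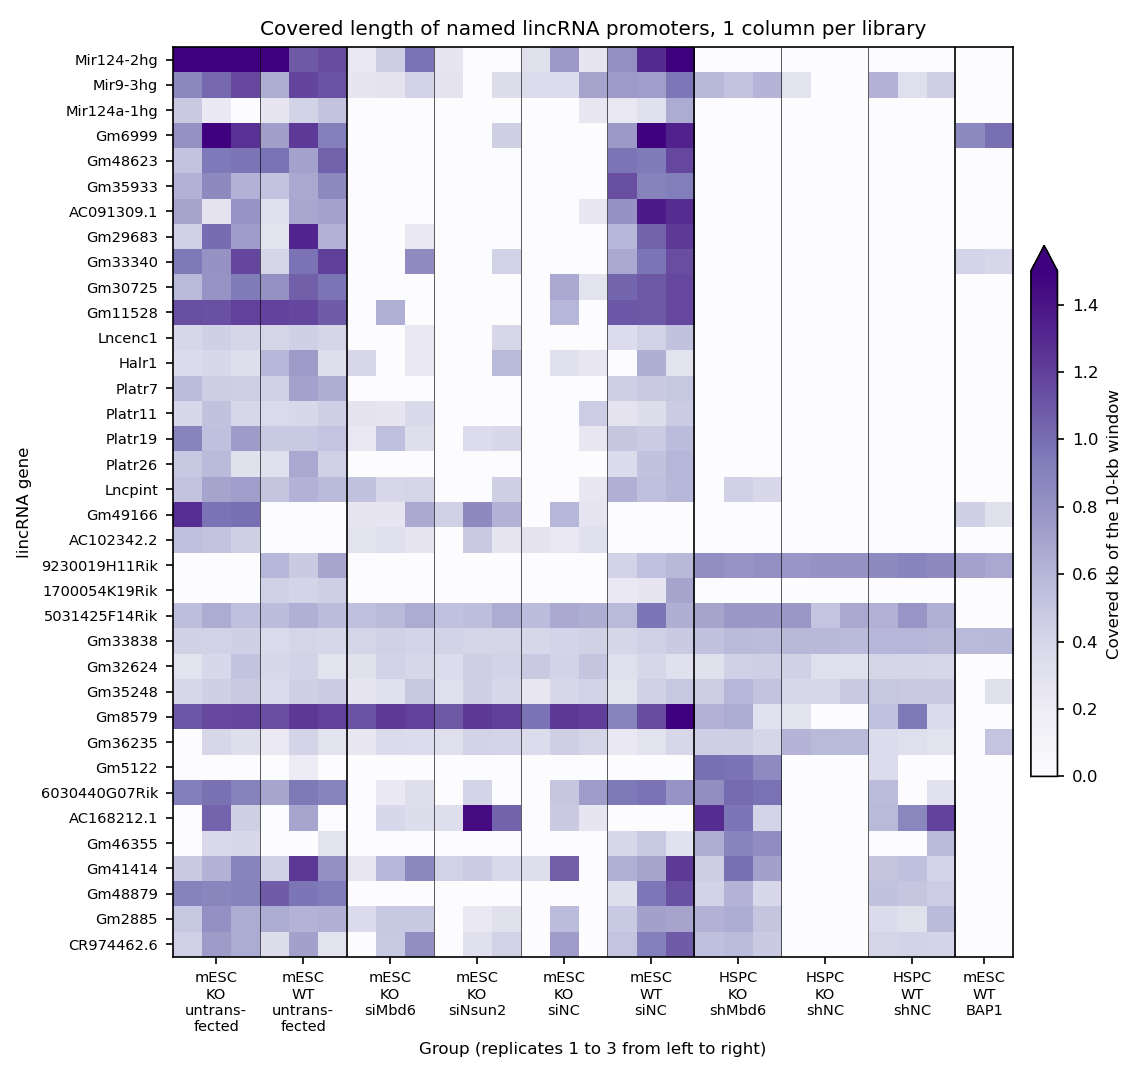
Covered length (colour, kb of the 10-kb window, saturating at 1.5) of 36 named lincRNA promoters (rows) in each library (columns, replicates 1 to 3 from left to right within a group, then 2 BAP1 libraries). Gm48623 is filled in the 9 untransfected KO, untransfected WT and WT siNC mES cell libraries and empty elsewhere, Gm33838 is filled throughout, and Gm5122 reaches 0.843 to 0.993 kb in KO shMbd6 HSPCs.

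Among 43 isolated lincRNAs in 8 lists of known roles, 32 had a peak in at least 1 library (74.4%), compared with 32.8% of all isolated lincRNA windows, and 11 were covered in all 6 WT mES cell libraries (25.6%, compared with 8.41%). In HSPCs 5 of the 43 had a peak in any library. Counts of calls in KO siNC cells stand beside the 71.8% of all tested windows called lower there. Of 21 isolated pluripotency-associated lincRNAs, 14 had a peak in at least 1 library, 6 were covered in all 6 WT mES cell libraries, and none in all WT HSPC libraries. In siNC cells 5 of the 7 tested were called lower in KO (Lncenc1, Platr7, Platr19, Platr26 and Trp53cor1) and none higher, near the background of 71.8%. Lncenc1, which supports naive pluripotency in mouse cells, had 0 kb in all 3 KO siNC libraries and 0.346, 0.424 and 0.533 kb in WT siNC libraries (adjusted p = 0.00513). Platr7 had 0 kb in KO siNC and 0.444, 0.47 and 0.494 kb in WT siNC libraries (adjusted p = 3.41e-07). Platr7 and Platr26 had 0 kb in every KO library with an siRNA. They passed the filter only through WT siNC and could only be called lower, so the direction of both calls was fixed. Platr11, near the mesendoderm regulator gene Eomes, had 0, 0 and 0.458 kb in KO siNC and 0.286, 0.345 and 0.465 kb in WT siNC libraries (adjusted p = 0.106). Trp53cor1, a p53 target lincRNA, was covered in 8 of the 27 libraries, including all 6 WT mES cell libraries.

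Of 7 isolated microRNA host genes, 6 had a peak and 4 were tested in siNC cells, where 3 were called lower and none higher, again near that background. Mir124-2hg had 0.31, 0.759 and 0.263 kb in KO siNC and 0.819, 1.29 and 1.71 kb in WT siNC libraries (adjusted p = 0.0144). Mir124a-1hg had 0, 0 and 0.252 kb in KO siNC and 0.245, 0.312 and 0.662 kb in WT siNC libraries (adjusted p = 0.0185). Mir9-3hg, host of the neural progenitor microRNA miR-9, was the only lincRNA of these lists covered in every WT library of both cell types, and had a peak in 24 of 27 libraries. It had 0.348, 0.353 and 0.692 kb in KO siNC and 0.745, 0.727 and 0.958 kb in WT siNC libraries (adjusted p = 0.0252). In HSPCs it had 0.585, 0.516 and 0.607 kb in KO shMbd6, 0.293, 0 and 0 kb in KO shNC and 0.617, 0.318 and 0.449 kb in WT shNC libraries. Limma called it lower in KO shNC than in WT shNC (adjusted p = 0.0346) and higher in KO shMbd6 than in KO shNC (adjusted p = 0.00461). Mir17hg, host of the growth-promoting miR-17 cluster, had 0, 0.327 and 0.404 kb in KO siNC and 0.215, 0.22 and 0 kb in WT siNC libraries (adjusted p = 0.555).

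In the other lists, Carmn and Rmst, lincRNAs of the cardiac and neural lineages, were tested in siNC cells and Bvht was not. Carmn was called lower, with 0 kb in all 3 KO siNC libraries and 0.312, 0.276 and 0.476 kb in WT siNC libraries (adjusted p = 9.47e-05). With 0 kb in every KO library with an siRNA, Carmn passed the filter only through WT siNC and could only be called lower. Rmst had 0.361, 0 and 0 kb in KO siNC and 0, 0.357 and 0.435 kb in WT siNC libraries (adjusted p = 0.292). Of the 4 blood-related lincRNAs, Lncpint, which p53 induces, was called lower, with 0, 0 and 0.25 kb in KO siNC and 0.628, 0.541 and 0.587 kb in WT siNC libraries (adjusted p = 0.0039). In HSPCs it had 0, 0.438 and 0.382 kb in KO shMbd6 libraries and 0 kb in the other 6. Of the 3 nuclear-body lincRNAs, Miat was called lower (adjusted p = 0.00498), Neat1, which builds paraspeckles, was covered in 4 libraries, and Malat1 in none. Of the imprinted lincRNAs, Meg3 was covered in 4 libraries, H19 in 4 and Mirg in none. The snoRNA hosts Snhg6 and Snhg20 were covered in 5 libraries each, in mES cells only. Xist, the lincRNA that coats the inactive X chromosome, had a peak in 1 WT shNC HSPC library (0.289 kb) and its neighbour Jpx in 1 WT siNC mES cell library (0.4 kb).

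BAP1 was found at few isolated lincRNA promoters. Its 2 libraries covered 29 and 39 windows, of which 19 were shared (0.384% of isolated lincRNA windows, against 0.237% of protein-coding windows). Of these 19, 12 (63.2%) were covered by H2AK119ub in all 6 WT mES cell libraries and 3 in none. All 6 covered 8.41% of all isolated lincRNA windows. Among 52 protein-coding windows shared by the BAP1 libraries, 44 (84.6%) were covered in all 6 and 3 in none, where 38.3% of all protein-coding windows were covered in all 6. Gm33838, Gm47882 and the 3 ribosomal RNA-like windows, 5 of the 19, were covered in all 27 H2AK119ub libraries. Gm6999 had 0.85 and 0.994 kb of BAP1 coverage and Gm33340 had 0.413 and 0.387 kb. Gm49166, which had no H2AK119ub peak in WT mES cells, had 0.44 and 0.307 kb of BAP1 coverage in WT mES cells. 9230019H11Rik had 0.713 and 0.672 kb. Repeat sequence made up a median of 38.4% of the 19 windows and 26.96% of all isolated lincRNA windows. In each of the 2 libraries it made up 68.5% of the BAP1-covered bases of lincRNA windows. Protein-coding windows ran the same way, with medians of 35.3% where both BAP1 libraries had a peak and 24.7% over all. Of their BAP1-covered bases, 59.4% and 53.0% were repeat sequence.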

How the data were processed

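H2AK119ub and BAP1 were profiled by CUT&Tag. Per the study's methods and the submitters' processing notes, the authors trimmed reads with Trimmomatic 0.39, aligned them with Bowtie2 2.4.1 to mm10 with a Drosophila spike-in genome, removed duplicates with Picard and ran MACS2 per library in broad mode, at a cutoff of 0.01. The deposited peak lists give positions, a peak score, signal as fold enrichment, and −log10 p and −log10 q values. The read depth behind a peak is unknown, so no count test was possible. Whether broad peaks were scaled to the spike-in is not given in the sources used here.

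Peaks of 27 mouse H2AK119ub and 2 BAP1 libraries were intersected with windows of 5 kb on each side of each TSS of GENCODE gene models. The overlap was computed in Python 3.11.15 and checked against bedtools 2.31.1 on simulated intervals. The covered length of protein-coding and isolated lincRNA windows was tested per experiment with limma 3.58.1 (R 4.3.3) on windows covered in at least 3 libraries, with Benjamini-Hochberg adjustment over the whole table at 0.05. Sums were compared by exact two-sided permutation of libraries (scipy 1.17.1). The deposited −log10 q served only for a stricter alternative of at least 5. The scripts were tested on simulated data. Groups were taken from the labels. The members and gene lists were chosen with earlier results of these data known.

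Windows were named by a rule. In each comparison these were the 6 largest differences in each direction among called windows whose groups did not overlap, at least 20 kb apart, or the 3 largest moderated t in each direction where none was called. They were joined by the most covered windows in WT mES cells and WT HSPCs, windows covered in every library or by both BAP1 libraries, and members of 8 lists of lincRNAs with known roles. The windows printed with sequence and those described as not following a fall were chosen after their values were seen. Human H2AK119ub libraries were not used here. The sequence of 1 window is not reported here.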

Additional observations from a re-analysis of the deposited data

Results flagged for a closer look

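Peaks on the chromosomes of the Drosophila spike-in, which no comparison of promoters used, were listed in every mouse H2AK119ub library, from 42 in the library with the fewest to 231 in the one with the most. The 3 KO shNC HSPC libraries listed the most, with 231, 226 and 205. The BAP1 libraries listed 0.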

How the results depend on the processing

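Depth is unknown, so an uncovered promoter is one without a listed peak, and 3 libraries a group cannot give an exact p below 0.1. Of the results that answer a comparison, 139 values stayed under alternatives other than leaving out libraries, 18 moved and 7 turned in sign. Staying means close to the reported value or on its side of the threshold. Covered lengths, summed or relative to protein-coding windows, could only stay or turn in sign, because their exact p never passes the threshold. Their part of the 139 therefore shows that the sign held, not that the size was stable. For named called windows and for counts of covered windows, 250 values under such alternatives stayed, 16 no longer passed the threshold, 8 moved and 2 turned in sign. Leaving out libraries, 248 stayed and 40 no longer passed. In this set of named windows and counts, each value is a window or a count under a single alternative, and only counts could move. Unless a construction is named, the cause was not tested. The alternatives without the ribosomal RNA-like windows and without replicate 1 of every group were chosen after seeing the data.

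With stricter peaks (−log10 q of at least 5), 9 of 310 tested isolated lincRNA windows were called for Tet2 loss in untransfected mES cells (all windows 0.613%) and 166 of 205 in siNC cells (all 90.1%). They were 1 of 205 for siMbd6 (all 0.228%), 1 of 205 for siNsun2 (all 0.166%), 3 of 39 for Tet2 loss in HSPCs (all 20.1%) and 12 of 39 for shMbd6 (all 67.0%). Counting only sequence covered in at least 2 libraries of a group gave 124 of 697 in untransfected cells (all 11.9%), 13 of 578 for siMbd6 (all 3.399%), 10 of 578 for siNsun2 (all 2.26%) and 26 of 92 for Tet2 loss in HSPCs (all 37.4%). On a log2 scale, 37 of 837 were called in untransfected cells (all 1.39%), and 1 of 660 each for siMbd6 (all 0.359%) and siNsun2 (all 0.201%). Within 2 kb of the TSS, 6 of 69 were called for Tet2 loss in HSPCs (all 23.1%) and 39 of 69 for shMbd6 (all 73.0%). Scaling to equal covered length gave 293 of 660 in siNC cells (all 38.8%), 27 of 117 for Tet2 loss in HSPCs (all 22.5%) and 43 of 117 for shMbd6 (all 32.8%).

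Leaving out libraries, the number called was 0 to 0 in untransfected cells, 122 to 467 in siNC cells, 0 to 5 for siMbd6, 0 to 1 for siNsun2, 11 to 23 for Tet2 loss in HSPCs and 48 to 68 for shMbd6. The 122 came without replicate 1 of every group. The log2 covered length ran from −0.17 to 0.20 in untransfected cells, −2.63 to −2.18 in siNC cells, 0.0043 to 0.58 for siMbd6 and −0.34 to 0.17 for siNsun2. It ran from −1.20 to −1.13 for Tet2 loss in HSPCs and 2.07 to 2.22 for shMbd6. Relative to protein-coding windows, siNsun2 ran from −0.0113 to 0.14.

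The untransfected log2 ratio turned to −0.0683 with stricter peaks, −0.0932 with scaling, −0.0943 with scaling and without the ribosomal RNA-like windows, −0.00143 without replicate 1 of every group, and −0.06, −0.04 and −0.17 without KO replicate 2, KO replicate 3 and WT replicate 1. With scaling the siNC ratio was −0.32, Tet2 loss in HSPCs 0.44 and shMbd6 −0.36, or −0.59, −0.10 and 0.40 when the ribosomal RNA-like windows were also left out. Relative to protein-coding windows, the siNC ratio became 1.45 with stricter peaks and 0.0479 with reproducible sequence, and siNsun2 −0.0113 without KO siNC replicate 3. Covered length with siNsun2 became 0.17 without siNsun2 replicate 1, and 0.10 and 0.02 without KO siNC replicates 2 and 3. Gm42418 with scaling became 6.09 kb for Tet2 loss and −7.84 kb for shMbd6 in HSPCs. Its scaled KO shNC values exceeded the window length, so these turns, and the 0.44 and −0.36 that include this window, rest on impossible lengths. Without the ribosomal RNA-like windows the counts called were 0, 469, 0, 0, 13 and 64 in the order untransfected, siNC, siMbd6, siNsun2, Tet2 loss in HSPCs and shMbd6.

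Same-numbered libraries correlated at −0.08 to 0.32 over the isolated lincRNA windows, so replicate numbers were taken as names only. With the replicate number as a block, the pairing gave 0, 481, 0, 0, 17 and 66 called windows in the same order and log2 covered lengths of 0.06, −2.45, 0.27, −0.09, −1.15 and 2.13.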
